A study of Mus musculus with 20 samples.

Results

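This account follows 10 genes that bear on the survival of germinal centre B cells and plasma cells: Tnfrsf17, Tnfrsf13b and Tnfrsf13c, which encode the receptors for BAFF and APRIL; Mcl1, Bcl2 and Bcl2l1, the pro-survival members of the BCL2 family; Bcl2l11, Bax and Bak1, its pro-apoptotic members; and Fas, a death receptor. The genes were taken from a fixed list by symbol, a rule that used no measured values, and 10 of 10 were among the 16047 genes of the deposited matrix. The list itself was chosen with earlier results of these data known. They were described across the authors' 4 sort gates and 7 annotated states. The cells were eYFP-positive and were sorted singly from lymph nodes of C57BL/6 mice immunised with NP-KLH (a hapten on a carrier protein) in Sigma Adjuvant System. Every group shared the tamoxifen gavage, given 4 days before the cells were taken at day 15 of the primary response. The driver and allele behind eYFP, the ages and the number of mice are not given in the sources used here, so eYFP is used only as the label of the sorted cells. The cells carried 2 sampleIDs, C57BL/6F (626 cells, 10 plates) and C57BL/6M (741 cells, 10 plates). The sampleID, the sex its last letter stands for, the animal and the handling cannot be told apart.

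BAFF and APRIL are ligands of the tumour necrosis factor family that keep B-lineage cells alive. Tnfrsf13c encodes BAFF-R, the BAFF receptor on which mature B cells depend; Tnfrsf13b encodes TACI, which binds both ligands; and Tnfrsf17 encodes BCMA, a receptor of plasma cells that can be shed from the surface by gamma-secretase. Inside the cell, MCL1, BCL2 and BCL-XL (the product of Bcl2l1) hold back BAX and BAK, which open the outer mitochondrial membrane, while BIM (the product of Bcl2l11) binds the pro-survival proteins and releases that block. Germinal centre B cells are known for high surface FAS and low BCL2, and mature plasma cells for their dependence on MCL1.

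The promoters of the receptors and of Bcl2l11 are shown as examples of genes that differed between gates. Others that also differed, such as Fas, are not shown. Each stretch is the 250 bases before an annotated start, 5′ to 3′ on the gene's strand, from RefSeq on GRCm38.p6. The windows are Tnfrsf17 at chr16:11313559-11313808 (+), Tnfrsf13b at chr11:61126505-61126754 (+), Tnfrsf13c at chr15:82224381-82224630 (-) and the upstream start of Bcl2l11 at chr2:128125788-128126037 (+), and none of them overlaps an annotated exon.
Tnfrsf17: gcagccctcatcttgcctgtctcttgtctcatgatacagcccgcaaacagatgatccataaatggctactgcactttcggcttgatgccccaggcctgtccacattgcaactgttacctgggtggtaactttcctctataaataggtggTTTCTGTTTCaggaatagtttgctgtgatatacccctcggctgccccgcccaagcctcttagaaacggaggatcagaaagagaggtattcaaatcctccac
Tnfrsf13b: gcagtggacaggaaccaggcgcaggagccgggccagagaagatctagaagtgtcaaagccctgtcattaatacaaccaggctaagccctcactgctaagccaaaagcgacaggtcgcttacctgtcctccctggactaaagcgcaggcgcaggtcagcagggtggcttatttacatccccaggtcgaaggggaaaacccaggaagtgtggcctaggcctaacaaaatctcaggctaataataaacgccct
Tnfrsf13c: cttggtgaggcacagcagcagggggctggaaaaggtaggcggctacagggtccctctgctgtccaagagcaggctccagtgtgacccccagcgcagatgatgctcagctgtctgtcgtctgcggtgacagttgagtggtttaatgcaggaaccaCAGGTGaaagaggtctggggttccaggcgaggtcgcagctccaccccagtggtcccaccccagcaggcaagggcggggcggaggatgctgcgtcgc
Bcl2l11: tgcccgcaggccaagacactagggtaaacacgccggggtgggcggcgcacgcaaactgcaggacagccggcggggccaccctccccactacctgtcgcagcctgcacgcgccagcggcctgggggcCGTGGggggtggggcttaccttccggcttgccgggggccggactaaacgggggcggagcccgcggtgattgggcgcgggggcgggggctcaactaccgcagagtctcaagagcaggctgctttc
Capitals mark matches to 5 motifs searched on both strands. In Tnfrsf17 they mark the interferon response motif (GAAA, any 2 bases, GAAA), found in reverse at position -101 from the start and present in 2.98% of 32851 promoters of this length. In Tnfrsf13c they mark CAGGTG, an E box bound by E proteins, at -96 (17.2% of promoters). In Bcl2l11 they mark the core of the unfolded protein response element, CCACG, in reverse at -124 (28.3% of promoters). The Tnfrsf13b window held none of the 5. The ETS-IRF composite (GGAA, any 2 bases, GAAA; 2.3% of promoters) was in no window of the 10 genes, and the kappa-B motif (7.25%) was in 1 window of Bcl2l1. A match describes letters only.

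The matrix held whole-number counts for 1367 cells, with a median of 60536 counts per cell (261 to 736478). Plate totals ran from 3208858 to 11908095 counts, except for plate 6 of C57BL/6F, which held 10 cells and entered no comparison of gates. No cell barcode was shared between plates. Counts stop at 1024 per gene and cell, a ceiling that 95 cells reached for at least 1 gene; the highest count of any of the 10 genes was 624. The gates held 325 cells (DZ, read here as dark zone), 367 (LZ, light zone), 282 (PrePC, pre-plasma) and 393 (PC, plasma). Sums over marker genes were compared in CPM (counts scaled to one common library total, the usual unit of that name). The summed level of 6 germinal centre B markers was 3471 CPM in the DZ gate, 2851 in LZ, 945 in PrePC and 44.4 in PC. That of 6 plasma cell markers was 3293, 2274, 6233 and 17958, thus higher in DZ than in LZ. Of the plasma cell markers, Irf4, Xbp1, Sdc1, Fkbp11 and Jchain averaged more over the plates in PC than in PrePC. Prdm1 did not (53.9 against 63.5 CPM), and Jchain had the highest level of them (13795 CPM in PC). Of 5 measured myeloid markers, 4 had counts in the PC gate and 4 in PrePC (summed 17.2 and 11.4 CPM), against 1 in DZ and LZ together (0.0865 CPM), where Csf1r, C1qa, C1qb and Itgax were at 0. T cell markers summed to 0.994 CPM in the germinal centre gates, 1.93 in PrePC and 2.97 in PC. The viability dye (asinh of its intensity) had a median of -0.126 in the germinal centre gates, 0.113 in PrePC and 0.756 in PC, and the median depth was 86863 counts per cell in PrePC against 51995 to 59514 in the other gates. The part of these differences in the results that follow was not tested.

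Cells were summed per plate and gate, and levels are given as CPM over 19 plates. In such sums fewer expressing cells and less RNA per cell cannot be told apart, so shares of cells with a count are given further on. The reads come from the 5′ ends of transcripts, and levels are compared within a gene and not between genes. A positive log2 fold change means a higher level in the class named first, and a change was called at a Benjamini-Hochberg adjusted p under 0.05 over all genes tested with edgeR, with the plate as block. The plates are the replicates, and whether they came from separate animals is not stated, so p-values measure the spread between plates.

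Between the plasma gate and both germinal centre gates, 4 of the 8 genes that passed the filter on low counts were higher and 3 lower. Over all 6865 genes tested, 13.6% were higher and 21.3% lower (34.9% in either direction), with a median log2 fold change of -0.50. Bcl2l1 was tested and not called, and Bcl2 and Bak1 were too low to be tested. Tnfrsf17 had no counts in the germinal centre gates, so it passed the filter only through the plasma gate. Its place among the 4 higher genes was thus open to 1 direction only. Among the receptors, the plasma gate had more Tnfrsf17 and Tnfrsf13b and less Tnfrsf13c. Between the pre-plasma gate and the germinal centre gates 1 of 7 genes tested was higher (Tnfrsf13b) and 3 lower (Tnfrsf13c, Bax, Fas), where 7.09% of 7150 genes were higher and 8.14% lower. Tnfrsf17 did not pass the filter there and is in neither count. Between the plasma and pre-plasma gates 3 of 8 were higher (Tnfrsf17, Tnfrsf13b, Bcl2l11) and 1 lower (Tnfrsf13c), where 8.42% of 6564 genes were higher and 9.69% lower. These comparisons share pools, so they are not independent of each other.

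Tnfrsf17 (chr16:11313812-11320074 in GENCODE M21 on GRCm38, as for the positions below) was at 0 CPM in all 19 DZ pools and all 19 LZ pools. In the PrePC gate it ranged from 0 to 229 CPM with a median of 10.2, and 8 plates were at 0. In the PC gate it ranged from 0 to 337 CPM with a median of 160, and 1 plate was at 0. The plasma gate held 4493 counts of it in the pools compared and the germinal centre gates 0 (adjusted p = 2.33e-05, higher on 18 plates and equal on 1). Against a floor of 3 counts over the germinal centre pools, that level was 2722-fold. The pre-plasma gate held 1370 counts, 571-fold the same floor, on 11 of 19 plates, and Tnfrsf17 did not pass the filter for a test there. Cells with Tnfrsf17 mostly held many counts each, so 1 missed cell could exceed the floor. These folds are therefore no lower limits. From the pre-plasma to the plasma gate Tnfrsf17 rose by 4.23 ± 1.11 (log2 fold change ± SE, adjusted p = 0.00845), on 17 plates against 1. On C57BL/6F plates alone that difference was 4.09 ± 1.91 (adjusted p = 0.292) and on C57BL/6M plates 4.18 ± 1.24 (adjusted p = 0.0391).

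Tnfrsf13b (chr11:61126755-61149372) had counts on every plate in every gate. Its lowest, median and highest plate levels were 95.1, 238 and 459.6 CPM in DZ, 109, 255 and 558 in LZ, 123, 335 and 645 in PrePC, and 365, 551 and 978 in PC. The order of the medians followed DZ, LZ, PrePC and PC, with overlapping ranges at each step. It rose by 1.16 ± 0.16 between the germinal centre gates and the plasma gate (adjusted p = 1.78e-06; 18 of 19 plates) and by 0.72 ± 0.19 between the pre-plasma and plasma gates (adjusted p = 0.00874; 16 of 19 plates). The step from the germinal centre to the pre-plasma gate was smaller, 0.38 ± 0.13 (adjusted p = 0.0394; 14 of 19 plates), and was lost in 5 of 8 alternative settings: without the plate block (adjusted p = 0.0898), without a filter (0.237), on thinned cells (0.23) and within either sampleID (0.272 and 0.308). Within the C57BL/6F plates the rise from pre-plasma to plasma was 0.31 ± 0.27 (adjusted p = 0.587), against 0.92 ± 0.25 within C57BL/6M (adjusted p = 0.0245).

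Tnfrsf13c (chr15:82221743-82224369) moved the other way. Its lowest, median and highest plate levels were 146, 940.2 and 1212 CPM in DZ, 505, 1120.5 and 1708 in LZ, 262, 538 and 788 in PrePC, and 12, 387 and 620.4 in PC. The plasma gate was lower than the germinal centre gates on 19 of 19 plates (-1.73 ± 0.20, adjusted p = 1.11e-07), and so was the pre-plasma gate (-1.05 ± 0.09, adjusted p = 9.2e-10; 19 of 19 plates). Both held within each sampleID: -1.52 and -1.92 for the plasma gate, -1.20 and -0.91 for the pre-plasma gate, in C57BL/6F and C57BL/6M. The further difference from the pre-plasma to the plasma gate was -0.71 ± 0.24 (adjusted p = 0.0377; lower on 15 plates, higher on 4), and it lost its call without the plate block (-0.51, adjusted p = 0.167) and within either sampleID (adjusted p = 0.175 and 0.0918). Even so, Tnfrsf13c had counts on every plate of the plasma gate.

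**Figure D1:**
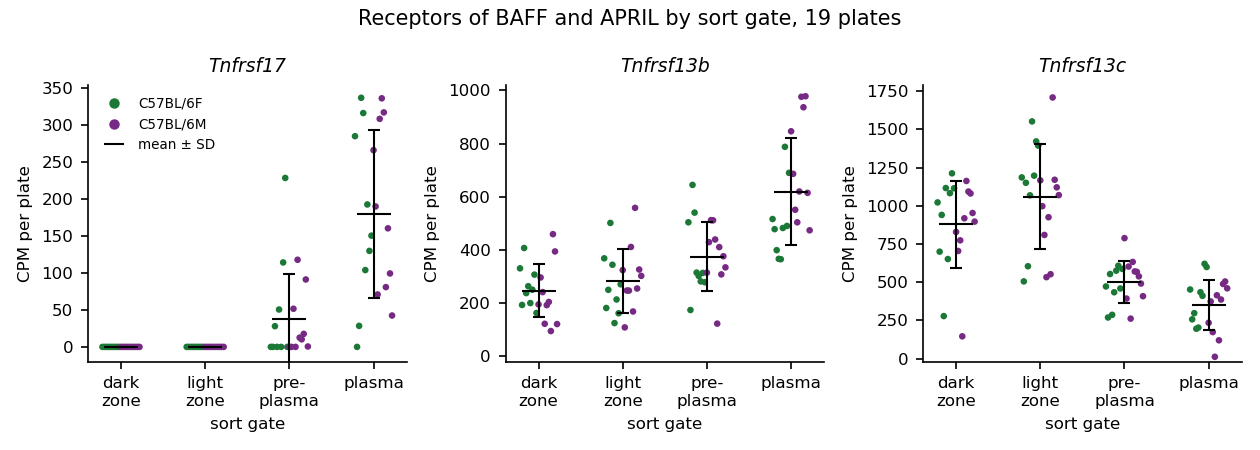
CPM per plate (vertical axis, linear) of Tnfrsf17, Tnfrsf13b and Tnfrsf13c in the 4 sort gates (horizontal axis). Each point is 1 plate (green C57BL/6F, purple C57BL/6M) and bars are the mean ± SD over 19 plates; Tnfrsf17 is at 0 in every DZ and LZ pool, Tnfrsf13b has its highest median (551) in PC, and Tnfrsf13c its lowest (387).

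Of the pro-survival genes, Mcl1 (chr3:95658788-95663176) was the one with counts on nearly all plates. Its lowest, median and highest plate levels were 0, 65.9 and 185 CPM in DZ, 0.569, 84.4 and 321 in LZ, 29.7, 84.5 and 229 in PrePC, and 4.80, 173 and 408 in PC. It was higher in the plasma gate than in the germinal centre gates (1.02 ± 0.34, adjusted p = 0.0204; 16 of 19 plates). The size was alike within each sampleID, 0.94 and 1.10, but neither passed alone (adjusted p = 0.141 and 0.162). Between the pre-plasma and germinal centre gates the difference was 0.10 ± 0.31 (adjusted p = 0.881), and between the plasma and pre-plasma gates 0.80 ± 0.39 (adjusted p = 0.177).

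Bcl2 (chr1:106538178-106714274) had a median of 0 CPM in every gate. It was above 0 on 3 plates in DZ, 4 in LZ, 7 in PrePC and 3 in PC, and its highest plate level was 63.5 CPM, in LZ. Its deposited count may include reads of an overlapping antisense gene, D630008O14Rik, since the strand setting of the counting is not given.

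Bcl2l1 (chr2:152780668-152831728) was above 0 on 6 plates in DZ and 9 in LZ, with medians of 0, and on 17 plates in PrePC and 14 in PC, with medians of 44.4 and 36.8 CPM. Its highest plate levels were 43.0, 115, 119 and 147 CPM in DZ, LZ, PrePC and PC. Against the germinal centre gates it was 3.0 ± 1.06 in the pre-plasma gate (adjusted p = 0.0584; higher on 15 plates, lower on 2) and 2.40 ± 1.01 in the plasma gate (adjusted p = 0.0728; 13 plates against 2). Both differences were past the threshold with DESeq2 (adjusted p = 0.000351 and 0.00636), and the first also without a filter (adjusted p = 0.0396).

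Among the pro-apoptotic genes, Bcl2l11 (chr2:128126038-128162547) showed the largest rise. Its lowest, median and highest plate levels were 0, 5.31 and 47.4 CPM in DZ, 0, 0 and 64.3 in LZ, 0, 22.4 and 114 in PrePC, and 0.931, 229.9 and 565 in PC. It rose by 5.13 ± 0.83 between the germinal centre gates and the plasma gate (adjusted p = 2.2e-05; 18 of 19 plates), and by 4.86 and 5.39 within the C57BL/6F and C57BL/6M plates. The step called was that between the pre-plasma and plasma gates (3.96 ± 0.81, adjusted p = 0.00085, 18 of 19 plates). The pre-plasma and germinal centre gates differed by 1.23 ± 0.89 (adjusted p = 0.423). With that wide SE, the missing call does not show that there was no earlier rise. The median was 22.4 CPM in PrePC against 5.31 in DZ and 0 in LZ. Within C57BL/6F alone the step from pre-plasma to plasma was 3.09 ± 1.02 (adjusted p = 0.121), and within C57BL/6M 4.57 ± 1.15 (adjusted p = 0.0163).

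Bax (chr7:45461697-45466898) fell. Its lowest, median and highest plate levels were 57.5, 234 and 510.1 CPM in DZ, 105, 276 and 549 in LZ, 44.3, 200.04 and 283 in PrePC, and 0, 156 and 235 in PC. It was lower in the plasma gate (-0.95 ± 0.32, adjusted p = 0.0236; 18 of 19 plates) and in the pre-plasma gate (-0.56 ± 0.15, adjusted p = 0.00776; 16 of 19 plates) than in the germinal centre gates. Within C57BL/6M plates the plasma difference was -0.83 (adjusted p = 0.0103) and within C57BL/6F plates -1.09 (adjusted p = 0.308). The pre-plasma call was lost within either sampleID (adjusted p = 0.106 and 0.236) and on thinned cells (adjusted p = 0.0676). Plasma and pre-plasma gates differed by -0.46 ± 0.35 (adjusted p = 0.428). An unlisted gene, Gm45808, overlaps Bax on the same strand.

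Bak1 (chr17:27019810-27029009) stayed low, with median plate levels between 0 and 4.34 CPM in the 4 gates and a highest level of 59.3 CPM, in PrePC. It was not tested in any comparison of gates, and it overlaps Ggnbp1 on the opposite strand.

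Fas (chr19:34290666-34327772) had the largest fall. Its lowest, median and highest plate levels were 175, 357 and 483 CPM in DZ, 178, 506 and 735 in LZ, 0.853, 142 and 253 in PrePC, and 0, 51.0 and 210.4 in PC. Against both germinal centre gates in 1 pool per plate the difference was -3.79 ± 0.59 in the plasma gate (adjusted p = 1.4e-05) and -2.04 ± 0.35 in the pre-plasma gate (adjusted p = 9.97e-05). In both comparisons all 19 plates were lower. Gate by gate the plate ranges overlapped: the lowest plates of DZ and LZ (175 and 178 CPM) lay below the highest of PrePC and PC (253 and 210.4). Within C57BL/6F and C57BL/6M the plasma difference was -3.09 and -4.40. From pre-plasma to plasma Fas differed by -2.04 ± 0.77 (adjusted p = 0.0697; lower on 15 plates, higher on 4); 5 of 8 alternative settings put this difference past the threshold.

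**Figure D2:**
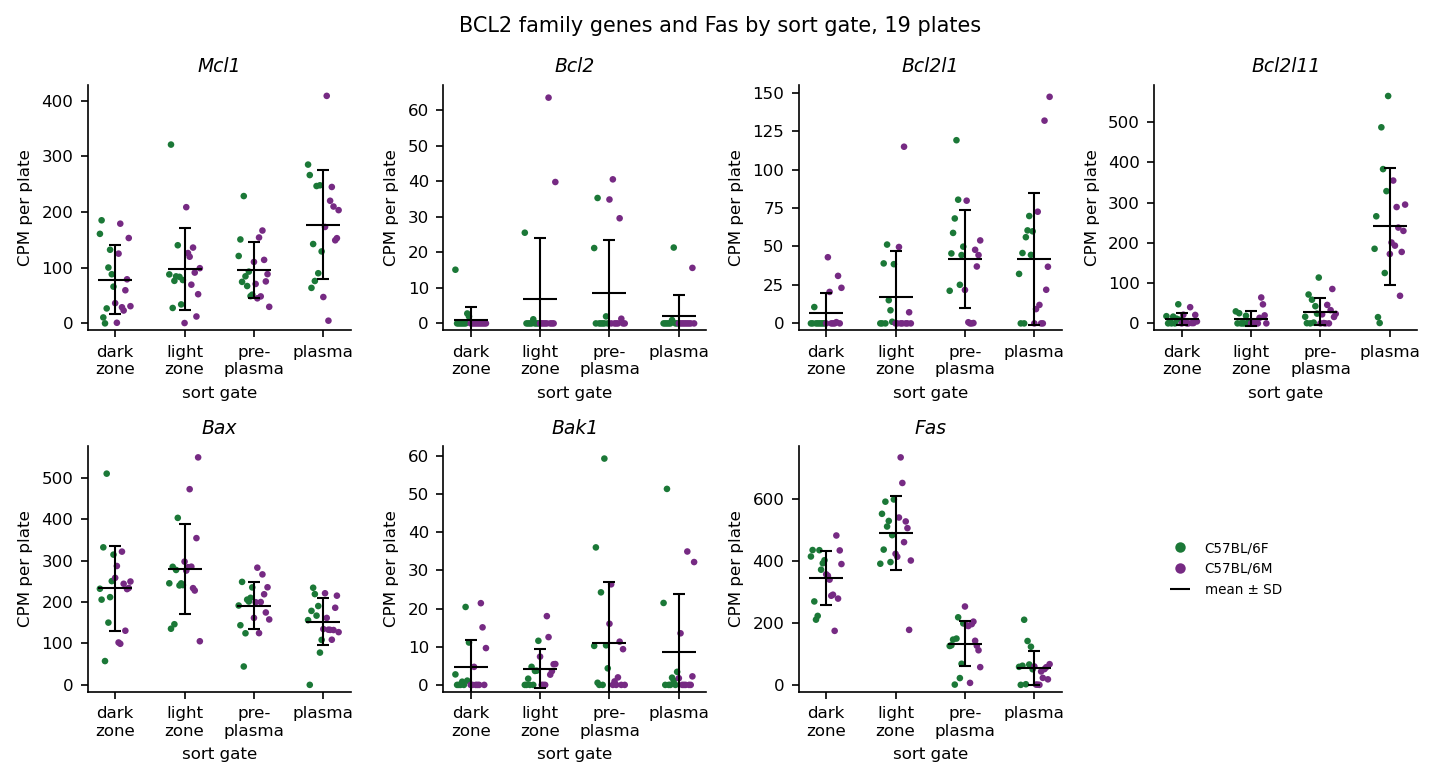
CPM per plate (vertical axes, linear, 1 scale per gene) of Mcl1, Bcl2, Bcl2l1, Bcl2l11, Bax, Bak1 and Fas in the 4 sort gates. Each point is 1 plate (green C57BL/6F, purple C57BL/6M) and bars are the mean ± SD over 19 plates; the median of Bcl2l11 is 229.9 in PC against 22.4 in PrePC, and that of Fas goes from 506 in LZ to 51.0 in PC.

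Between the dark and light zone gates none of the 10 genes was called. Of the 5 tested, none passed with edgeR or with DESeq2, and 2 had an unadjusted p under 0.05: Fas (-0.51 ± 0.17 in DZ against LZ, p = 0.0048, adjusted p = 0.429; lower on 17 of 19 plates) and Tnfrsf13c (-0.31 ± 0.13, p = 0.0287, adjusted p = 0.899). Over all genes 0.186% of 5904 were higher and 0.119% lower. Between cells annotated DZ and LZ, where 0.845% of 5447 genes were higher and 0.569% lower (46 and 31 genes, 1.41% in all; 41 and 42 with RLE scaling), Tnfrsf13c was -0.41 ± 0.12 (adjusted p = 0.0816). It passed with RLE scaling (-0.49, adjusted p = 0.0188) and with DESeq2 (-0.49, adjusted p = 0.000448). Tnfrsf13b was -0.48 ± 0.24 (adjusted p = 0.476) and Fas -0.07 ± 0.18 (adjusted p = 0.921) in the annotated comparison.

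**Figure D3:**
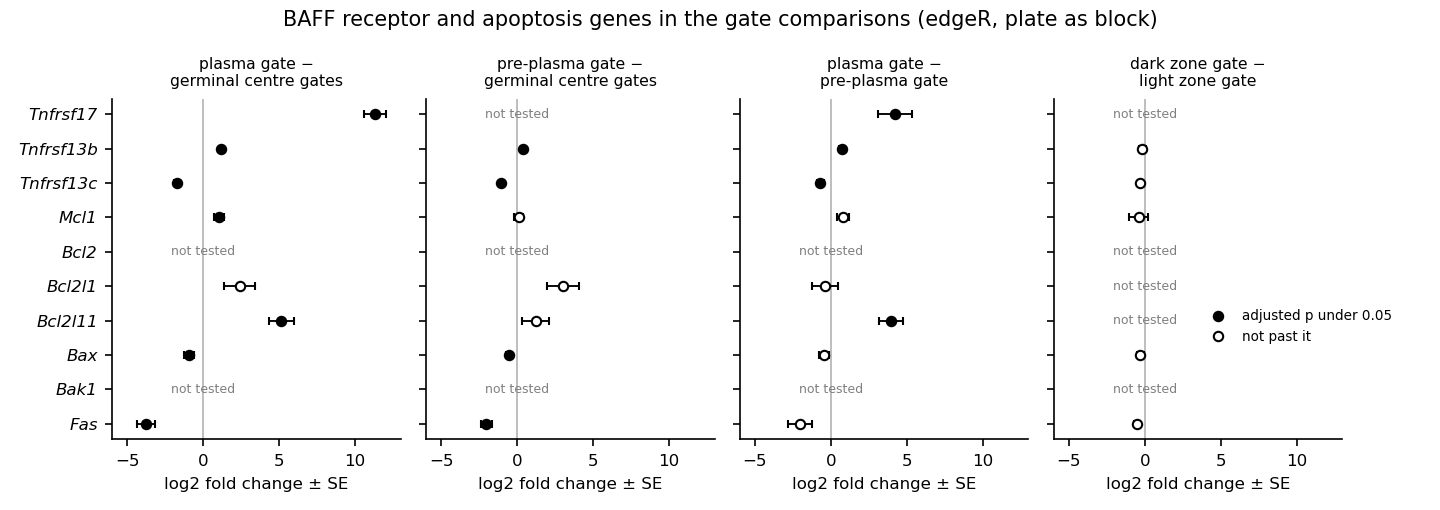
Log2 fold change ± SE (horizontal axis) of those of the 10 genes that were tested in 4 comparisons of gates, 1 panel each; a gene that did not pass the filter is marked as not tested. Filled points have an adjusted p under 0.05 and open points do not; Tnfrsf17 and Bcl2l11 lie farthest to the right in the panels of the plasma gate against the germinal centre and the pre-plasma gates, and no point is filled in the panel of DZ against LZ.

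The authors' annotation divided the cells into 7 states: DZ (452 cells), LZ (278), LZtoDZ (48), prePC.Act (29), prePC.Mem (63), PC (480) and preMem (17). Gate and state differ. All 29 prePC.Act cells came from the pre-plasma gate, which also held 128 cells annotated PC, 63 DZ and 27 prePC.Mem. The plasma gate held 33 of the prePC.Mem cells. How the states were assigned is not given in the sources used here, and transcripts of these cells may have entered into it. Median depth differed widely, from 16638 counts per cell in prePC.Mem to 229914 in prePC.Act. The germinal centre marker sum was 153 CPM in prePC.Act and 362 in prePC.Mem, and the plasma cell marker sum 3066 and 21020. In the PC state these sums were 87.4 and 14472 CPM, so the plasma cell sum was higher in prePC.Mem than in PC.

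Cells annotated PC differed from cells annotated DZ, LZ or LZtoDZ much as the gates did, over 19 plates and 7649 genes of which 15.1% were higher and 15.8% lower. Of 9 genes tested, 4 were higher (Tnfrsf17, Tnfrsf13b, Mcl1, Bcl2l11) and 3 lower (Tnfrsf13c, Bax, Fas). Tnfrsf17 had 5252 counts in PC cells and 3 in germinal centre cells, so it passed the filter only through the PC cells. Tnfrsf13b was 1.16 ± 0.12 (adjusted p = 1.69e-08; 19 of 19 plates), Tnfrsf13c -1.35 ± 0.11 (adjusted p = 1.79e-10) and Mcl1 0.95 ± 0.22 (adjusted p = 0.00152). Bcl2l11 was 5.17 ± 0.76 (adjusted p = 5.65e-06), Bax -0.86 ± 0.30 (adjusted p = 0.0333) and Fas -3.04 ± 0.35 (adjusted p = 1.37e-07). Many of the same cells enter both comparisons, so the annotated result is not a second measurement.

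Within the PC state, the plasma and pre-plasma gates could be set side by side on 17 plates. Tnfrsf17 was higher in PC cells of the plasma gate (5.65 ± 1.16, adjusted p = 0.00242; 14 plates against 2), where 4.67% of 5713 genes were higher and 1.28% lower (5.95% in all). This call was lost with pools of at least 10 cells (10.68, adjusted p = 0.111), without the plate block (2.23, adjusted p = 0.151) and within either sampleID (adjusted p = 0.0693 and 0.128). Bcl2l11 was 2.94 ± 0.89 (adjusted p = 0.051; higher on 15 of 17 plates) and passed on thinned cells (2.05, adjusted p = 0.0204), without a filter (adjusted p = 0.000288) and with DESeq2 (adjusted p = 0.00013). Tnfrsf13b, Tnfrsf13c, Mcl1, Bcl2l1, Bax and Fas did not pass, with adjusted p from 0.51 to 0.973. PC cells of the pre-plasma gate had a median of 106183 counts per cell, against 64068 in the plasma gate.

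The smaller states were pooled per sampleID, which gives 2 pools each, named in the order C57BL/6F and C57BL/6M below. Tnfrsf17 was 89.5 and 34.3 CPM in prePC.Act, 121 and 150.3 in PC, and 0 in DZ and LZtoDZ. In LZ it was 0 and 0.320 CPM, from 3 counts in all, and in preMem 1 count was found. In prePC.Mem it was 347 and 3.80 CPM, but 168 of the 173 counts lay in 1 cell. Of all the states, PC included, prePC.Act had the largest share of cells with a count, 6 of 29. These shares were taken on whole cells, without thinning. Median depth was 229914 counts per cell in prePC.Act against 70190 in PC, and the part of depth in this order was not tested.

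Tnfrsf13b was low in LZtoDZ (181 and 154 CPM) and highest in PC (509.6 and 692), with preMem at 173 and 432. DZ (237 and 231) lay below LZ (390 and 352) in both pools, and prePC.Act (386 and 449) and prePC.Mem (273 and 334) lay between LZtoDZ and PC. Tnfrsf13c was high in LZ (1368.5 and 1188 CPM) and DZ (995 and 947), lower in LZtoDZ (727 and 655), and lower again in prePC.Act (289 and 450.0), prePC.Mem (177 and 387) and PC (463 and 367). The last 3 overlapped between pools. In preMem, with 12 and 5 cells, it was 1316 and 586 CPM.

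Mcl1 was low in LZtoDZ (42.1 and 13.1 CPM) and high in prePC.Mem (277 and 228) and PC (150.3 and 183), with prePC.Act at 80.7 and 52.4 and preMem at 117 and 0. Bcl2 was 0 in LZtoDZ and prePC.Mem and under 5 CPM in DZ and PC, and 2.20 and 27.6 CPM in LZ. It reached 16.7 and 17.3 CPM in prePC.Act, from 3 cells, and 32.5 and 119 in preMem, from 2 cells. Bcl2l1 was 57.3 and 51.0 CPM in PC, 34.5 and 33.9 in LZtoDZ, 16.7 and 37.1 in prePC.Act, and 0 in prePC.Mem and preMem.

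Bcl2l11 was 173 and 179 CPM in PC, 14.0 and 0.199 in prePC.Act, and between 4.20 and 18.0 in the 3 germinal centre states. In prePC.Mem it was 277 and 26.6 CPM, with 135 of 157 counts in 1 cell, and in preMem 0 and 167 CPM, from 1 cell. Bax was 254 and 262 CPM in DZ, 231 and 293 in LZ, 297 and 276 in LZtoDZ and 234 and 267 in prePC.Act, all above the 162 and 160.0 in PC. Bak1 was at most 35.1 CPM, in prePC.Act of C57BL/6F. Fas was 396 and 443 CPM in DZ, 548 and 420.1 in LZ, 233 and 265 in LZtoDZ, 85.8 and 123 in prePC.Act, 345 and 123 in prePC.Mem, 87.6 and 43.0 in PC, and 532 and 495 in preMem.

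**Figure D4:**
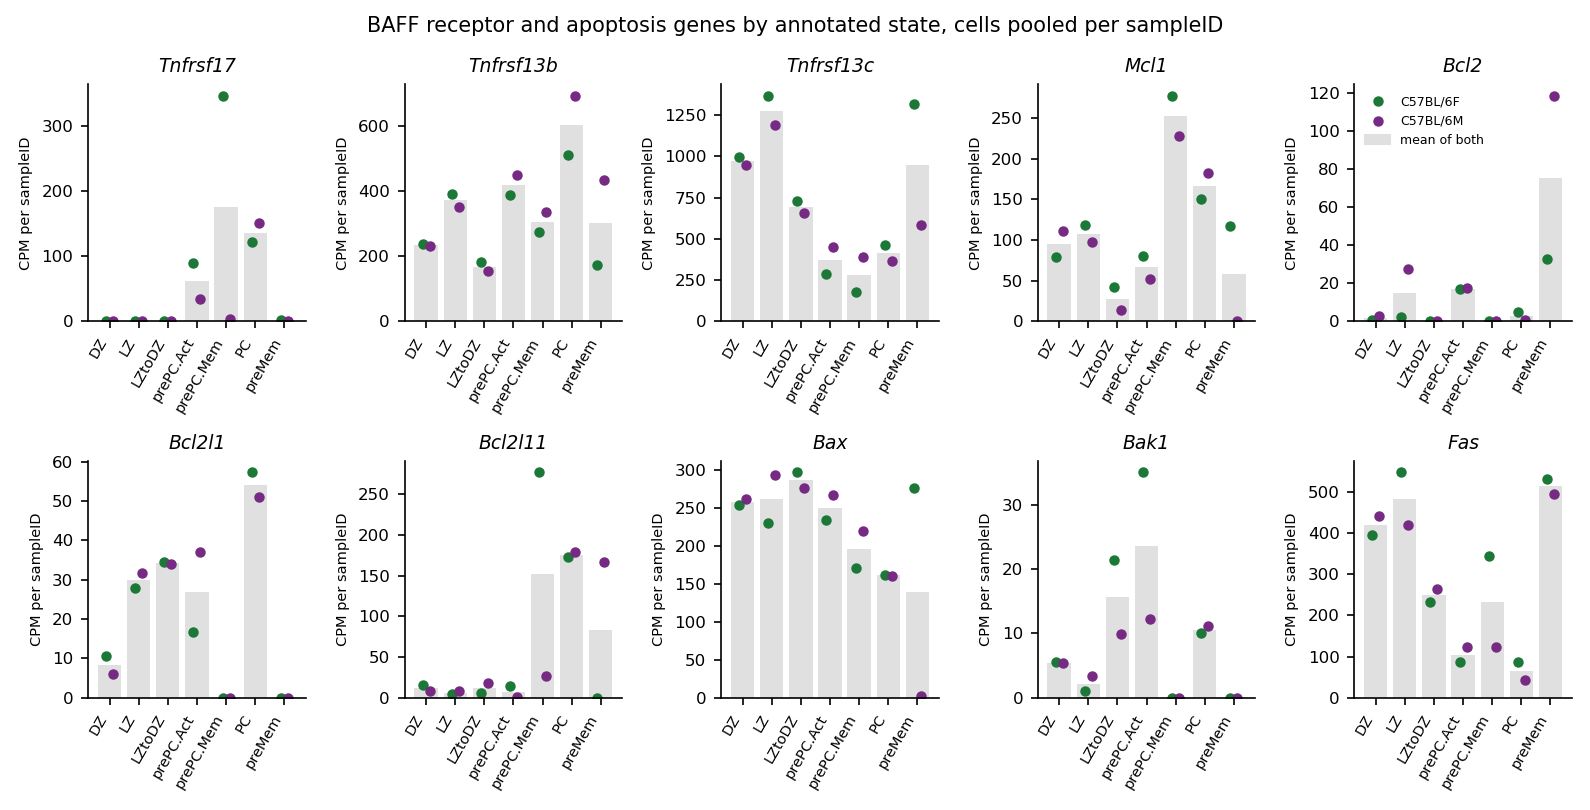
CPM per sampleID (vertical axes, linear, 1 scale per gene) of the 10 genes in the 7 annotated states. Points are the pools of C57BL/6F (green) and C57BL/6M (purple) and grey bars their mean; in prePC.Mem the green points of Tnfrsf17 (347) and Bcl2l11 (277) rest on 1 cell each, and Fas in prePC.Act (85.8 and 123) lies below LZtoDZ (233 and 265).

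With edgeR no gene of the 10 passed in the 3 comparisons of pre-plasma states with each other, LZtoDZ or PC. They were tested over 10995 genes with 2 pools per state. Between prePC.Act and LZtoDZ, where 0.2% of genes were higher and 0.0546% lower, 3 genes had an unadjusted p under 0.05: Tnfrsf17 (p = 0.00174, adjusted p = 0.248), Bcl2 (p = 0.00363, adjusted p = 0.344) and Tnfrsf13b (1.30 ± 0.49, p = 0.0203, adjusted p = 0.604). DESeq2 called Tnfrsf17 (adjusted p = 0.000386) and Bcl2 (adjusted p = 0.00155), both of them absent from LZtoDZ, and Tnfrsf17 also passed with edgeR without a filter (adjusted p = 0.0458). Fas was -1.23 ± 0.57 (adjusted p = 0.78). Between prePC.Act and prePC.Mem (0.4% higher, 0.537% lower), Bcl2, Bcl2l1 and Bak1 had an unadjusted p under 0.05 and adjusted p of 0.179, 0.105 and 0.152, each at 0 in prePC.Mem, and DESeq2 called these 3. Between prePC.Mem and PC (0.0455% higher, 0.0273% lower), Bcl2l1, Bak1 and Fas had an unadjusted p under 0.05 with adjusted p of 0.133, 0.242 and 0.168, of which DESeq2 called Bcl2l1 and Fas. A gene at 0 in all 63 prePC.Mem cells allows a share of up to 4.76% of cells with a count. The prePC.Mem cells also had the lowest depth, a median spike-in share of 4.70% against 0.886% in prePC.Act, and a T cell marker sum of 34.2 CPM from 1 of 7 genes against 0; the part of these in the differences was not tested.

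Inside the pre-plasma gate the states could be compared under 1 sort. Tnfrsf17 was 57.2 CPM in prePC.Act and 60.6 in PC, with all cells pooled, against 0 in DZ and LZtoDZ, 1.94 in LZ and 1.14 in prePC.Mem. The single cell that carried it in prePC.Mem was thus outside this gate. Tnfrsf13c went from 999.9 CPM in DZ and 672 in LZ to 551 in LZtoDZ, 408 in prePC.Act, 442 in prePC.Mem and 464 in PC. Fas went from 303, 272 and 288 CPM in DZ, LZ and LZtoDZ to 114 in prePC.Act, 111 in prePC.Mem and 78.0 in PC. Bcl2l11 was 63.9 CPM in PC and 5.52 in prePC.Act. These values carry no test.

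Levels in the PC state were also set out by cell cycle phase, as the authors assigned it. Bcl2l11 was 245 CPM in 378 cells in G1, 73.7 in 48 in S and 46.8 in 54 in G2M, and both sampleIDs kept this order (247, 88.0 and 50.9 in C57BL/6F; 244, 63.5 and 42.2 in C57BL/6M). In germinal centre cells it was 9.76, 10.8 and 10.2 CPM. Mcl1 in PC cells was 197 CPM in G1, 93.0 in S and 106 in G2M, and higher in G1 than in S or G2M in both sampleIDs. Tnfrsf13b was 645 CPM in G1, 456 in S and 436 in G2M, and highest in G1 in both sampleIDs (515 in C57BL/6F and 738 in C57BL/6M). Tnfrsf17 was 175, 81.2 and 52.4 CPM, but in C57BL/6F G1 and S were alike (131 and 126). In germinal centre cells Tnfrsf13c was 1282 CPM in G1, 915 in S and 700.1 in G2M, in the same order in both sampleIDs, and Bax 313, 263 and 211. How phase was assigned is not given in the sources used here, and transcripts of these cells may have entered into it. The values carry no test.

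Shares of cells with a count were taken after each cell was thinned to 10000 counts, which left out 96 shallower cells. Tnfrsf17 was found in 59 of 375 plasma gate cells (15.7%, exact 95% interval 12.2 to 19.8%) and 18 of 257 pre-plasma gate cells (7.0%, 4.2 to 10.8%). Without thinning these shares were 16.8 and 8.2%. Among all 692 germinal centre gate cells none had a count, which allows a share of up to 0.434%; these cells also serve as the background, at a median depth of 53277 counts against 59514 in the plasma gate. The intervals and this limit cover counting error only. Plasma gate cells with Tnfrsf17 held a median of 47 counts of it.

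Tnfrsf13b was found in 38.2% of thinned DZ cells, 45.7% of LZ, 54.9% of PrePC and 61.6% of PC cells, and Tnfrsf13c in 68.4, 74.3, 63.8 and 40.3%. Fas was found in 48.0, 56.7, 26.5 and 8.5% of cells in the same order, and Bax in 47.7, 50.4, 44.4 and 28.5%. Bcl2l11 went from 3.6 and 2.7% to 10.5 and 22.7%, Mcl1 from 15.8 and 16.7% to 27.2 and 30.7%, and Bcl2l1 from 1.6 and 3.3% to 10.9 and 9.6%. Bcl2 was in at most 2.3% of cells of a gate and Bak1 in at most 2.7%. These shares come from thinned cells and the summed levels from whole cells, so the 2 are unlike measures. In the pre-plasma gate the level of Mcl1 differed from the germinal centre gates by 0.10 ± 0.31 on the log2 scale, while its share was 27.2%. Over the settings tried, thinned cells among them, that level difference ran from 0.01 to 0.41, and 0 of 8 alternatives passed the threshold.

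Receptor combinations were counted on whole cells. Tnfrsf13b and Tnfrsf13c were found together in 36.3% of DZ, 45% of LZ, 47.5% of PrePC and 33.8% of PC gate cells. Tnfrsf13c without either other receptor was found in 33.2% of DZ and LZ cells alike, 15.2% of PrePC and 7.9% of PC cells, and Tnfrsf13b without either other receptor in 5.8, 4.9, 10.3 and 25.2%. Of the 66 plasma gate cells with Tnfrsf17, 53 also had Tnfrsf13b and 32 had Tnfrsf13c. None of the 3 was found in 24.6, 16.9, 25.2 and 23.4% of cells.

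The balance of the BCL2 family was summarised as the log2 ratio of summed Mcl1, Bcl2 and Bcl2l1 to summed Bcl2l11, Bax and Bak1. The sums join genes that may be captured unequally, so the ratio is read between classes and its sign is not. Its median over plates was -1.71 in DZ, -1.36 in LZ, -0.72 in PrePC and -0.84 in PC, and the plates spread widely, from -5.87 to 0.84 in DZ and from -4.20 to 0.76 in PC. Both sums were higher in PC: the pro-survival sum averaged 86.0, 121, 147 and 221 CPM in the 4 gates, and the pro-apoptotic sum 248, 295, 231 and 402. This order of gates depends on the formula: with the mean of the logs in place of the sums the medians were -1.45, -0.66, -0.39 and -1.54. PC thus went from above both germinal centre gates to beside DZ, and the means over plates were -1.42 in PC and -1.44 in DZ. What made up the pro-apoptotic sum differed: Bcl2l11 was 4.3% of it in DZ, 4.0% in LZ, 12.7% in PrePC and 60.01% in PC, while Bax was 93.9, 94.6, 82.5 and 37.8%. Mcl1 was 90.9, 80.2, 65.4 and 80.0% of the pro-survival sum.

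By state the ratio of sums was lowest in LZtoDZ (-2.07 and -2.67 in the 2 sampleIDs), though with the mean of logs prePC.Mem (mean -2.03) lay beside LZtoDZ (-1.95). It was -1.30 and -1.38 in prePC.Act. It was -1.61 and -1.20 in DZ, -0.67 and -0.96 in LZ, and -0.70 and -0.58 in PC. PrePC.Mem (-0.69 and -0.11) and preMem (-0.88 and -0.51) rest on few counts. As a score over the BCL2 family genes among the 10, the ratio was not tested, and averaging the logs in place of the sums changed its sign in 3 states.

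**Figure D5:**
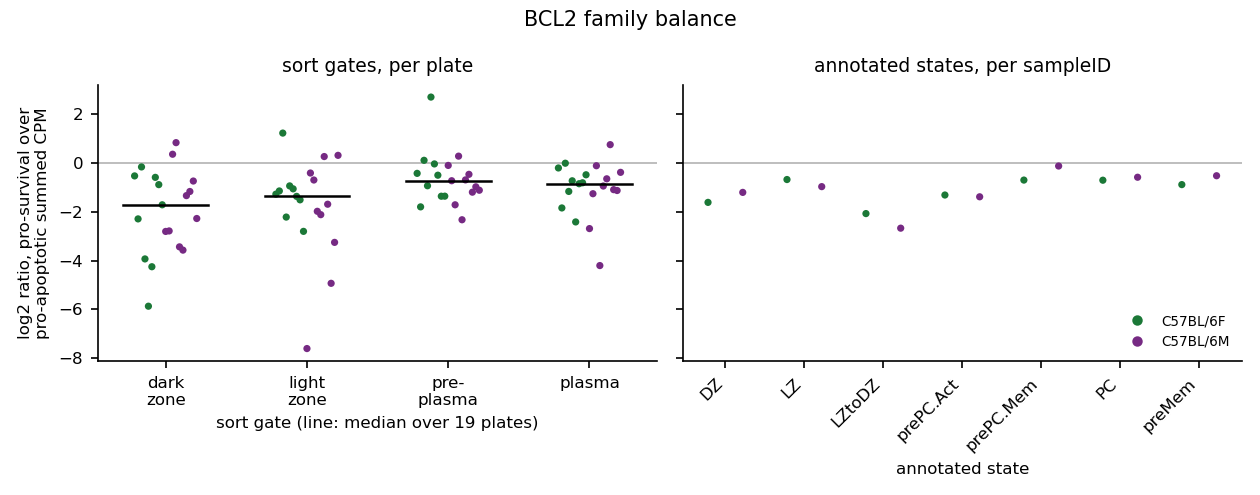
Log2 ratio of the summed CPM of Mcl1, Bcl2 and Bcl2l1 to that of Bcl2l11, Bax and Bak1 (vertical axis) for the sort gates (left, 1 point per plate, line at the median over 19 plates) and the annotated states (right, 1 point per sampleID). The gate medians are -1.71, -1.36, -0.72 and -0.84, with wide overlap between gates, and LZtoDZ has the lowest pair of state values.

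The other genes of these pathways were followed in 7 lists chosen by function. Between the plasma and germinal centre gates, 7 of 13 tested genes of BAFF and APRIL signalling fell and none rose (median log2 fold change -1.72 against -0.50 over all genes, of which 21.3% were lower and 13.6% higher). Those named by the rule were Cd40, the receptor for T cell help (-7.99 ± 1.01), and the NF-kappa-B subunits Rel (-6.57 ± 1.03) and Nfkb1 (-5.68 ± 1.0). In the pre-plasma gate 4 of 14 had fallen and none had risen (median -1.20 against -0.19 over all genes, of which 8.14% were lower and 7.09% higher), led by Rel (-3.20), Traf1 (-2.06) and Cd40 (-1.71). Between plasma and pre-plasma gates Cd40 (-6.28) and Nfkb1 (-4.43) fell, 2 of 12 tested, where 9.69% of all genes were lower.

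In the list of proteases that shed BCMA and related receptors, 6 genes were tested between the plasma and germinal centre gates and had a median of 0.46. Over all genes the median was -0.50, with 21.3% lower and 13.6% higher, also for the 2 lists that follow. Lists this short give counts that say little against these shares. Psenen, a subunit of gamma-secretase, rose by 0.81 ± 0.19 in the plasma against the germinal centre gates and by 1.05 ± 0.21 against the pre-plasma gate, while Psen2, a catalytic subunit, fell by 1.93 against the germinal centre gates. Of the other pro-survival BCL2 genes 2 were tested, and both fell in the plasma gate, Bcl2a1d by 4.23 and Bcl2a1b by 2.90; these copies are nearly identical, so how reads were split between them is uncertain. Of 4 other pro-apoptotic genes tested, Bid, the BH3-only protein that links death receptors to mitochondria, fell by 1.74 ± 0.28, Bnip3 fell by 3.97, and Bnip3l rose by 0.99 (median of the list -1.31). Bid also fell in the pre-plasma gate (-0.79) and between pre-plasma and plasma gates (-0.99), where 8.14% and 9.69% of all genes were lower.

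Among caspases, apoptosome genes and their inhibitors, 3 of 13 fell and 1 rose (median -0.78), shares near or below the 21.3% lower and 13.6% higher over all genes. Those that fell were Birc5, or survivin, which also serves in mitosis (-1.49), and the mitochondrial channels Vdac3 (-1.21) and Vdac2 (-0.78); the one that rose was Cycs, cytochrome c (0.60), named after its value was seen. In the death receptor list 2 of 7 fell, the necroptosis kinase Ripk3 (-5.42) and Fcmr, the Fc receptor for IgM (-2.94), and none rose (median -1.74), against 21.3% lower over all genes. Among p53 response genes and regulators of BIM and MCL1, 1 of 9 rose and 2 fell (median 0.31), near the shares over all genes (13.6 and 21.3%). Trp53inp1, a p53-inducible gene, rose by 5.90 ± 0.53 from 20.3 ± 22.5 to 756 ± 285 CPM (SD, n = 19 plates), on 19 of 19 plates. It rose by 3.87 ± 0.47 between the pre-plasma and plasma gates too. Foxo1, a dark zone factor, fell by 3.24 and Trp53 by 1.67.

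SampleID made no called difference to the 10 genes. Within germinal centre cells, where 0.539% of 7423 genes were higher in C57BL/6M and 0.0135% lower (0.552% in all), 8 were tested and none passed with edgeR, with DESeq2, or at an unadjusted p under 0.05. Within PC cells, where 0.873% of 7216 genes were higher and 0.0831% lower (0.956% in all), Tnfrsf13b alone of 9 tested had an unadjusted p under 0.05 (0.37 ± 0.15, p = 0.0168, adjusted p = 0.572), and none passed with edgeR or DESeq2. Differences between the sampleIDs in the 7 comparisons made by plate were tested for 50 pairs of gene and comparison; none passed, and the lowest unadjusted p was 0.0501.

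The genes whose level most resembled each of the 10 were ranked by Pearson correlation over 14 pools (7 states in 2 sampleIDs) among 5663 genes with a mean of at least 20 CPM. The pools share depth and cell number within a state, and the values are a description. Tnfrsf17 went with Cdh23 (r = 0.975), Tigit (0.968) and Mnda (0.933), Tnfrsf13b with Ebp (0.863), Tecr (0.796) and Ccdc47 (0.787), and Tnfrsf13c with Coro1a (0.958), Arpc1b (0.95) and Sp110 (0.941). Bcl2l11 went with Hint3 and Trp53inp1 (0.841 each) and Ak3 (0.832), and Fas with H2-DMa (0.957), Elmo1 (0.948) and Fcer2a (0.941). For Mcl1 the nearest were Fuca1 (0.989), Gpr108 and Tmem242, for Bcl2 Phykpl (0.845), Sgcb and Syne2, and for Bcl2l1 Plscr1 (0.974), Fbxo9 and Bag1. For Bax they were Gmnn (0.985), Nono and Zfp207, and for Bak1 Heatr3 (0.974), Bcat1 and Rrp1b. Where a gene of the 10 was above 0 in few cells, as for Tnfrsf17 in prePC.Mem, its nearest genes rest on those cells.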

How the data were processed

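The authors deposited whole-number counts per gene and cell as a sparse matrix, with a table of each cell's plate, sampleID, sort gate, annotated state and cycle phase. The submitters' processing notes name STAR 2.5.3a, HTSeq 0.9.1 and mm10, without their order or settings; the strand setting is not given in the sources used here. Per the labels, libraries were made by FB5P-seq, a plate method that reads 5′ ends, with 22 preamplification cycles. The deposited share of spike-in counts is a fraction of each cell's total and is printed here as a percent. Cell fluorescence was deposited on an inverse hyperbolic sine scale, and its channels hold no protein of the 10 genes.

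Counts were summed per plate and class (at least 5 cells) or, for the smaller states, per sampleID. They were tested with edgeR 4.0.16 in R 4.3.3 (TMM scaling, filterByExpr, quasi-likelihood) over all genes, with plate or sampleID as block because pools of 1 plate share its handling; p-values were adjusted by Benjamini-Hochberg at 0.05. Plates could be matched to a sampleID by the sex column but not to a single deposited sample. DESeq2 1.42.0, RLE scaling, no filter, thinned cells, larger pools, no block and each sampleID alone were alternatives. Fits were tested on simulated data. From each pathway list up to 3 genes past the threshold were named per comparison, by absolute log2 fold change. Genes, lists and tests were chosen with earlier results of these data known. Plate 6 of C57BL/6F (5979 counts) was left out of comparisons of gates.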

Additional observations from a re-analysis of the deposited data

Results flagged for a closer look

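For each gene with counts, each of 3 annotated states (DZ, LZ and PC) and each sampleID, the plate farthest from its neighbour was compared with the range over the 9 or 10 plates of that group. In 13 of 57 such groups 1 plate stood apart by Dixon's criterion. About 1 of 20 groups of normally distributed values meets it, a rate that does not hold where most plates are at 0. The 13 groups therefore cannot be set against that rate. For genes found in few cells most plates are at 0, and a single cell can then set a plate's level.

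Of the genes with counts on most plates, Tnfrsf13c in DZ cells was 388.6 CPM on plate 14 of C57BL/6M against 835.3 on the next lowest plate. Plate 2 of C57BL/6F stood apart in PC cells for both Mcl1, at 393.0 CPM against 218.9 on the next highest plate, and Bax, at 0 against 140.5 on the next lowest. Bcl2 stood apart 4 times, at 34.1 CPM in DZ (plate 17, C57BL/6M), 18.6 in LZ (plate 1, C57BL/6F), 81.4 in LZ (plate 16, C57BL/6M, where 1 cell held 198 counts) and 7.15 in PC (plate 19, C57BL/6M). Bcl2l1 was 78.1 CPM in DZ on plate 4 of C57BL/6F, where 1 cell held 80 counts. Bcl2l11 was 35.6 CPM in LZ on plate 1 of C57BL/6F and 42.4 on plate 18 of C57BL/6M. Bak1 was 19.2 CPM in DZ on plate 17 of C57BL/6M, 19.3 in LZ on plate 18 of C57BL/6M, and 41.2 in PC on plate 3 of C57BL/6F, where 1 cell held 77 counts.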

How the results depend on the processing

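Of 590 alternative values for the 10 genes with a test, 545 stayed on the same side of the threshold, 22 passed where the reported value had not, and 23 no longer passed. No called value changed sign, but values not called did in some alternatives, such as Bcl2l1 between plasma and pre-plasma gates (-1.04 to 0.20) and Mcl1 between annotated DZ and LZ (-0.47 to 0.73); where a call changed, the cause was not tested. Counts of called genes moved more. DESeq2 called 3730 genes (2398 with edgeR) between plasma and germinal centre gates, 1982 (1089) between pre-plasma and germinal centre gates, 2364 (1189) between plasma and pre-plasma gates, 135 (18) between DZ and LZ gates, 3629 (2367) between annotated plasma and germinal centre cells, 569 (77) between annotated DZ and LZ, 870 (340) between gates within annotated plasma cells, 389 (28) for prePC.Act against LZtoDZ, 1881 (103) against prePC.Mem, 1366 (8) for prePC.Mem against PC, and 99 (41) and 118 (69) between sampleIDs in germinal centre and plasma cells. In the order of the first 7 comparisons, edgeR on C57BL/6F plates alone called 953, 529, 302, 0 (143 at an unadjusted p under 0.05), 1013, 14 and 82; on C57BL/6M plates it called 1527, 495, 764 and 5 in the first 4, and 31 and 162 in the last 2. Without a filter 50 genes were called between DZ and LZ gates, 133 between annotated DZ and LZ, and 61, 211 and 47 in the 3 comparisons of smaller states. Without a replicate block 42 were called between annotated DZ and LZ, 208 between prePC.Act and prePC.Mem and 22 between prePC.Mem and PC, where RLE scaling called 30. Pools of at least 10 cells left 8 calls within annotated plasma cells, fewer plates being tested. Thinned cells gave 23 calls between sampleIDs in germinal centre cells, and leaving out plate 6, chosen after seeing the data, gave 35. RLE scaling moved the median of all genes from -0.27 to -0.37 (plasma against pre-plasma gates), from -0.25 to -0.35 (annotated plasma against germinal centre) and from 0.24 to 0.13 (annotated plasma by gate). The BCL2 family ratio also moved: with a mean of logs its state values were -1.08 in DZ, 0.86 in LZ, -1.95 in LZtoDZ, 0.14 in prePC.Act, -2.03 in prePC.Mem, -1.15 in PC and 0.27 in preMem, and on thinned cells -3.15 in LZtoDZ, -1.65 in prePC.Act, -0.48 in PC and 0.16 in preMem; the sign changed in LZ, prePC.Act and preMem. With 1 sampleID left out, 20 values of the smaller states differed from the reported ones by more than the spread and 40 by no more. That spread is the SD of the same 2 sampleIDs, and the value left in is 1 of them. It is also a plain difference of log CPM, set against an edgeR estimate. The split therefore cannot show how far the values depend on 1 sampleID. Few counts limit Bcl2 and Bak1, low depth limits prePC.Mem, and the 17 cells of preMem limit that state; a single cell can set a level there.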
